A study of Mus musculus with 2 samples.

Results

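The transcripts described here are 40 genes of S phase and DNA replication, the set commonly used to score S phase in single cells. All 40 were found by symbol among the 14959 genes counted. They were followed in single cells of a pair of mouse melanoma cell lines. B16F10 is labelled a highly metastatic subclone, and B16F0 is labelled parental. Both were assayed with 10x Chromium 3' libraries of v2 chemistry, with no treatment given in the labels and 1 library per line. No difference between the lines therefore has a replicate check, no test was made, and all intervals are 95% intervals that cover counting error only.

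In S phase a cell copies its genome once. Licensing proteins load the MCM helicase on origins in G1, cyclin E and its kinase help to fire them, and primase, polymerases, the sliding clamp and its loader then build the new strands from deoxynucleotides that ribonucleotide reductase supplies. Histone chaperones and readers of DNA methylation restore chromatin behind the fork, and checkpoint and repair proteins guard it. Transcription of many of these genes rises at the G1 to S boundary through E2F factors, which bind short GC-rich letters close to the start of the gene, and falls again by G2. In melanoma cell cultures, as in other cultures, transcripts of this class mark the cells that are passing through S phase.

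The B16F10 library held 1574 cells and 56748682 unique molecular identifiers (UMIs), and the B16F0 library held 2582 cells and 94268486 UMIs. Median depth per cell was 34950.5 UMIs in B16F10 and 35503.5 UMIs in B16F0, and the median mitochondrial share was 6.72% in B16F10 and 5.35% in B16F0. Levels are given as CPM, counts scaled to a common total of UMIs, from sums over the cells of a class, and 3 counts correspond to 0.0529 CPM in B16F10 and 0.0318 CPM in B16F0. Levels are compared between cells and not between genes. All 7 melanocyte markers, among them Mlana and Dct, were present and summed to 7733 CPM in B16F10 and 7852 CPM in B16F0. Of other cell types, 3 of 5 fibroblast markers summed to 3.82 CPM in B16F10 and 3.99 CPM in B16F0, and 2 of 5 macrophage markers to 3.93 CPM in B16F10 and 6.26 CPM in B16F0. The count table gave 0 of 5 T cell markers, the keratinocyte marker Epcam stood at 0 CPM in B16F10 and 0.361 CPM in B16F0, and 2 of 5 endothelial markers summed to 63.3 CPM in B16F10 and 66.3 CPM in B16F0, nearly all from Egfl7. The libraries shared 6 barcode sequences.

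Promoter windows of 300 bases, from 250 before to 50 after the start, were matched for 30 of the 40 members in RefSeq's table on GRCm38.p6. The letters TTTCCCGC, TTTCGCGC, TTTGCCGC or TTTGGCGC, the common core of an E2F site, occurred on either strand in 12 of these 30 genes (40%), compared with 704 of 27025 genes in the table (2.605%). The 12 were Casp8ap2, Cdc6, Cdca7, Clspn, Dtl, Hells, Mcm5, Mcm6, Pola1, Pold3, Ubr7 and Uhrf1. The letters CCAAT occurred in 21 of the 30 (70%), compared with 41.1% of genes, and TTTGAA, the core of the CHR element known from G2/M promoters, in 6 of the 30 (20%), compared with 20.2% of genes. Dscc1, Rfc2, Tipin, Mcm4, Gmnn, Ccne2, Exo1, Atad2, Gins2 and Usp1 had no entry.

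The 150 bases before the start are shown for the 3 members that differed most between the lines in cycling cells, Cdca7, Rrm1 and Prim1, and for Cdc6, one of the 3 members that fell furthest between S only and G2M only cells. Each is written 5' to 3' on the strand of its gene, the plus strand in all 4 cases, with E2F and CCAAT letters of either strand in capitals. Starts are RefSeq's and can differ from the gene spans given further on, which are GENCODE's. The windows are chr2:72476069-72476218, chr7:102441545-102441694, chr10:128015065-128015214 and chr11:98908001-98908150 on GRCm38.p6.
Cdca7: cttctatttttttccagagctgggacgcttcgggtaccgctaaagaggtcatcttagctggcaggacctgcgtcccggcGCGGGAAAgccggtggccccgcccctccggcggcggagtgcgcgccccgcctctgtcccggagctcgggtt
Rrm1: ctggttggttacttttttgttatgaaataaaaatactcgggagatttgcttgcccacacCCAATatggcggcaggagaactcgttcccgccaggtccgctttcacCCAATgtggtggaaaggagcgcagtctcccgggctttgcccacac
Prim1: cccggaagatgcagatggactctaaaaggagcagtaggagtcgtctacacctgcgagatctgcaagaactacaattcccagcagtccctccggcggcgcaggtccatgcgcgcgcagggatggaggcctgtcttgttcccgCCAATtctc
Cdc6: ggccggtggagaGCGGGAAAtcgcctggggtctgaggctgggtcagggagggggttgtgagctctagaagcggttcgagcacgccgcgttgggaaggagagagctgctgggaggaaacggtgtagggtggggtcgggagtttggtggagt
Cdca7 and Cdc6 each held the E2F letters GCGGGAAA, which read TTTCCCGC on the other strand and begin 71 bases before the start in Cdca7 and 138 before it in Cdc6. Rrm1 held CCAAT at 91 and 45 bases before the start, and Prim1 held it at 9 bases before the start. A match of letters is a description of the sequence and was not tied to binding.

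Cells were placed in the cycle with the S and G2/M scores that the authors deposited. A cell was called S only where its S score was above 0 and its G2/M score was not, both where both were above 0, G2M only where only the G2/M score was above 0, and non-cycling where neither was. The authors' cycling class coincided with the first 3 of these. Neither the labels nor the headers say which genes entered the deposited scores. Since the members are a usual S phase scoring set, their rise with the S score may be built in and is given as a description, beside values from scores computed anew with the gene in question left out.

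Cycling cells made up 78.1% of B16F10 cells (1230 cells) and 54.6% of B16F0 cells (1411 cells). The members summed to 2597 CPM over all B16F10 cells and 1929 CPM over all B16F0 cells. Within cycling cells the sums were 3049 CPM in B16F10 and 2811 CPM in B16F0, and within non-cycling cells they were 750 CPM in B16F10 and 792 CPM in B16F0. In whole libraries, then, the gap between the lines was wider than within either class of cells. The classes coincide with the signs of scores that the members may have entered. A narrower gap within them, here and below, may therefore be built in and was not tested. Over all cells 13 of the 40 members were higher in B16F10 by 1.5-fold, counting genes that reached 10 CPM in either line, where 11.3% of all genes were, and 0 were lower, where 6.14% of all genes were. The 13 were Rrm1, E2f8, Rrm2, Uhrf1, Exo1, Dtl, Cdca7, Cdc6, Blm, Mcm4, Mcm6, Usp1 and Mcm5. The median log2 ratio of B16F10 over B16F0 was 0.34 for the members and 0.13 for all 7425 genes measured at that level.

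Restricted to cycling cells, 2 of the 40 members were higher in B16F10 by 1.5-fold (background 9%), 1 was lower (background 5.97%) and 37 lay between. The median log2 ratio of the members was 0.048 and that of all genes 0.10. The members past the fold were Rrm1 and Cdca7, higher, and Prim1, lower. Median depth in cycling cells was 36316 UMIs per cell in B16F10 and 37356 UMIs in B16F0, and the median mitochondrial share was 6.42% in B16F10 and 5.33% in B16F0. Whether these differences contributed was not tested.

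Rrm1, the large subunit of ribonucleotide reductase, lies on GRCm38 at chr7:102441695-102469771, where it overlaps the non-coding Gm45399 on the same strand. Its level in cycling cells was 96.6 CPM (93.7 to 99.5) in B16F10 and 54.4 CPM (52.5 to 56.5) in B16F0, a log2 ratio of 0.83 (0.76 to 0.90). In non-cycling cells it stood at 20.6 CPM in B16F10 and 12.4 CPM in B16F0, the only member past 1.5-fold of the 25 that could be measured there (background 11.7% higher and 7.35% lower). Rrm1 was thus higher in B16F10 in both classes of cells. After each cell was thinned to 23173 UMIs, at least 1 Rrm1 UMI was found in 89.8% of B16F10 cells and 77.1% of B16F0 cells with both scores above 0. Without thinning these shares were 95.1% in B16F10 and 86.8% in B16F0, at median depths of 38588 and 40499.5 UMIs per cell. Among non-cycling cells the thinned shares were 38.3% in B16F10 and 23.6% in B16F0, and the unthinned ones 41.9% in B16F10 and 30.5% in B16F0.

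Cdca7 activates the chromatin remodeller Hells and lies at chr2:72476159-72486893. It stood at 29.8 CPM (28.2 to 31.4) in cycling B16F10 cells and at 18.4 CPM (17.3 to 19.6) in cycling B16F0 cells, a log2 ratio of 0.70 (0.58 to 0.82). In non-cycling cells its levels were 9.32 CPM in B16F10 and 9.71 CPM in B16F0. Cdca7 was thus past the fold in cycling cells and near level in non-cycling ones, and the difference between these ratios was not tested. Hells itself had a log2 ratio of -0.08 in cycling cells, with 153 CPM in B16F10 and 162 CPM in B16F0.

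Prim1 is the catalytic subunit of primase, which starts each Okazaki fragment with an RNA primer, and lies at chr10:128015168-128030037. It stood at 33.9 CPM (32.2 to 35.6) in cycling B16F10 cells and at 51.5 CPM (49.6 to 53.5) in cycling B16F0 cells, a log2 ratio of -0.60 (-0.69 to -0.51). In non-cycling cells it had 10.9 CPM in B16F10 and 16.2 CPM in B16F0. Prim1 was lower in B16F10 in both classes, and it was the only member below 0 on the log2 scale over all cells, at -0.30. The call rests on a value close to the fold: on the mean of per-cell CPM its log2 ratio was -0.55, and among cells with at most 8% mitochondrial UMIs it was -0.52. Thinned shares of cells with both scores above 0 that held a Prim1 UMI were 53.8% in B16F10 and 73.5% in B16F0, and unthinned ones 70.3% in B16F10 and 84.5% in B16F0.

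Just inside and outside the fold, the nearest higher member past it was Cdca7, and the nearest short of it were Uhrf1 and Rrm2, both at 0.54. Rrm2 passed the fold, at 0.59, once cells above 8% mitochondrial UMIs were left out. Among genes of nucleotide supply, Rrm2, the small subunit of ribonucleotide reductase, had 266 CPM in cycling B16F10 cells and 183 CPM in cycling B16F0 cells. Tyms, thymidylate synthase, had 105 CPM in B16F10 and 104 CPM in B16F0. The 2 reductase subunits thus stood higher in B16F10 while Tyms was level, at a log2 ratio of 0.01 (-0.04 to 0.07). Reads of Tyms, Pcna and Nasp may be shared with annotated pseudogenes, so their levels are uncertain.

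Among licensing and helicase genes, the ratios were 0.45 for Mcm4, 0.40 for Mcm6, 0.27 for Mcm5 and 0.06 for Mcm2, which are subunits of the MCM ring, and 0.38 for Cdc6, which loads the ring. Cdc45 and Gins2, which join the ring in the active helicase, were at -0.27 and -0.17, and Gmnn, the inhibitor of licensing, was at -0.05. No licensing or helicase gene passed the fold. Cyclin E2 (Ccne2) had a ratio of -0.26. E2f8, an E2F family repressor, had 24.5 CPM in B16F10 and 17.3 CPM in B16F0, a ratio of 0.50 (0.37 to 0.63).

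At the fork, Pcna, the sliding clamp, was at -0.01, Rfc2, a subunit of its loader, at 0.00, and Dscc1, a subunit of the alternative loader, at -0.27. Pola1, the catalytic subunit of the polymerase that extends primers, was at 0.17, Pold3, a subunit of polymerase delta, at 0.02, Fen1, the flap nuclease, at 0.13, and Rpa2, a subunit of the single-strand binding protein, at -0.17. These ratios were small beside that of Prim1, the partner of Pola1 in the primase complex. Tipin and Clspn, of fork protection and the replication checkpoint, were at -0.09 and -0.07.

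Genes of chromatin and histone supply fell on both sides of 0. Uhrf1, which reads half-methylated DNA, had 181 CPM in B16F10 and 125 CPM in B16F0, a ratio of 0.54 (0.50 to 0.59). Nasp, a histone chaperone, was at 0.30 and Casp8ap2, a factor in processing of histone transcripts, at 0.36, while Slbp, which binds the histone stem-loop, was at 0.04. Chaf1b, a subunit of chromatin assembly factor 1, had 45.3 CPM in B16F10 and 56.8 CPM in B16F0, a ratio of -0.33 (-0.41 to -0.24). Atad2, a bromodomain ATPase, was at -0.23.

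Of the repair and ubiquitin genes, Dtl, the substrate receptor of the ligase that degrades Cdt1 in S phase, had 125 CPM in B16F10 and 86.6 CPM in B16F0, a ratio of 0.53 (0.47 to 0.59). Usp1, which removes ubiquitin from Pcna and Fancd2, was at 0.28, Ung, the uracil glycosylase, at 0.29, Exo1, an exonuclease, at 0.44, and the helicase Blm at 0.32. Rad51ap1, a DNA repair factor, had 72.7 CPM in B16F10 and 94.9 CPM in B16F0, a ratio of -0.38 (-0.45 to -0.32). The helicase Brip1 was at -0.13, the WD-repeat protein Wdr76 at 0.02 and Ubr7, of the UBR ubiquitin ligase family, at 0.25.

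**Figure D1:**
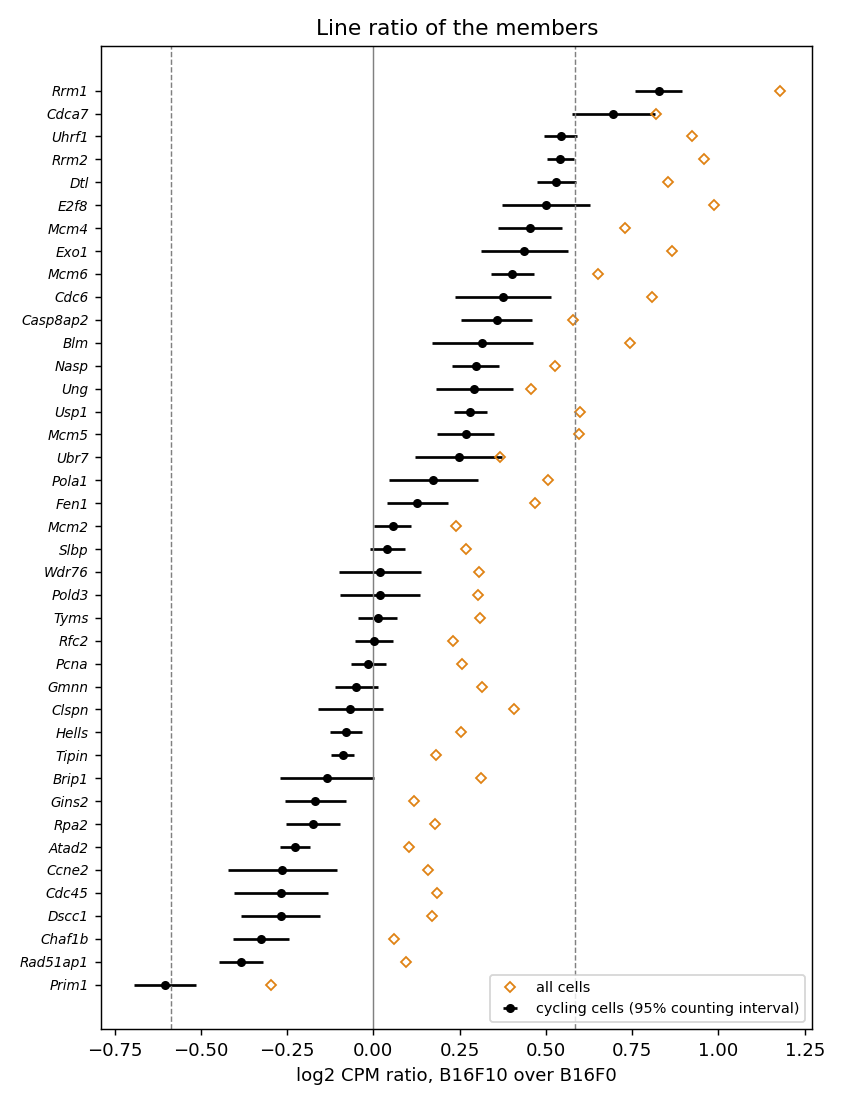
Log2 ratio of summed CPM, B16F10 over B16F0, for the 40 members, with filled points and bars for cycling cells (95% counting intervals) and open diamonds for all cells. Dashed lines mark 1.5-fold, and in cycling cells Rrm1 and Cdca7 lie beyond it above and Prim1 beyond it below, while every diamond lies to the right of its filled point.

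The line ratios were then taken within finer classes, since B16F10 and B16F0 cycling cells were spread differently over them. S only, both and G2M only cells numbered 370, 593 and 267 in B16F10 and 523, 516 and 372 in B16F0. In S only cells 6 members were higher (background 9.85%) and 0 lower (background 6.48%): Rrm1, E2f8, Cdca7, Uhrf1, Rrm2 and Exo1. The S only cells were themselves spread differently in the lines, and counts by finer bin are given below. In cells with both scores above 0, Ung, Cdca7 and Rrm1 were higher (background 10.7%) and Prim1 was lower (background 6.36%). In G2M only cells Rrm1 and Blm were higher of 33 measured (background 10.3%) and 0 were lower (background 6.46%). Rrm1 was the one member past the fold in all of these classes.

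Ung had the widest gap of any member measured in these 3 classes, 22.8 CPM in B16F10 and 11.1 CPM in B16F0 among cells with both scores above 0, a log2 ratio of 1.04. In S only cells Ung had 61.4 CPM in B16F10 and 53.8 CPM in B16F0, and in G2M only cells 3.36 CPM in B16F10 and 2.76 CPM in B16F0. Prim1 had 33.4 CPM in B16F10 and 47.5 CPM in B16F0 among S only cells, and 38.4 CPM in B16F10 and 66.3 CPM in B16F0 among cells with both scores above 0. Its ratio was -0.79 in the last of these classes. Blm in G2M only cells had 12.7 CPM in B16F10 and 7.55 CPM in B16F0.

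For a finer order, cycling cells were split into 6 bins of 45 degrees by the angle of the G2/M score over the S score, so that bins 1 and 2 are S only, bins 3 and 4 hold both scores above 0 and bins 5 and 6 are G2M only. The bins held 86, 284, 282, 311, 241 and 26 cells in B16F10 and 244, 279, 257, 259, 303 and 69 cells in B16F0. Over these 6 bins and the non-cycling cells, 7 members were higher in B16F10 in 7 of 7 comparisons (background 29.5%), Rrm1, Dtl, Rrm2, E2f8, Ubr7, Casp8ap2 and Usp1. Prim1, Rpa2 and Chaf1b were lower in B16F10 in 7 of 7 (background 19%). Both are smaller shares of the 40 members than of all genes measured. The log2 ratio of Rrm1 ran between 0.43 and 1.06 over these comparisons, and that of Prim1 between -0.88 and -0.31. E2f8 had 2 UMIs in bin 6 of B16F10 and 0 in bin 6 of B16F0, so its direction there rests on almost no counts. Rpa2 had 6 UMIs in bin 6 of B16F10. Chaf1b was near level in non-cycling cells, with 11.6 CPM in B16F10 and 11.8 CPM in B16F0. The smallest log2 ratios of Ubr7 and Casp8ap2 were 0.089 each, so a direction in 7 of 7 can include comparisons near level.

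All 40 members were higher in cycling than in non-cycling cells by 1.5-fold in each line, where 13.2% of all genes were in B16F10 and 9.89% in B16F0. The median log2 ratio was 2.07 in B16F10 and 1.93 in B16F0, and this direction may be built into the scores that the class coincides with. E2f8 had the widest contrast, with 24.5 CPM in cycling and 0.896 CPM in non-cycling cells of B16F10 and 17.3 CPM in cycling and 0.607 CPM in non-cycling cells of B16F0. Ubr7 had the narrowest, at log2 0.73 in B16F10 and 0.61 in B16F0. The highest bin of a member exceeded its non-cycling level by a median of 5.90-fold in B16F10 and 5.49-fold in B16F0.

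Every member peaked in bins 1 to 3. In B16F10 the peak fell in bin 1 for 2 members, in bin 2 for 19 and in bin 3 for 19, and in B16F0 in bin 1 for 1 member, in bin 2 for 25 and in bin 3 for 14. The peak bin was the same in both lines for 30 of 40 members. Ung peaked in bin 1 in both, though in B16F10 bins 1 and 2 were level within counting error. Cdc6, Wdr76, Uhrf1, Mcm2, Mcm4, Mcm6, Exo1, Rpa2, Clspn, Dtl, Hells, Atad2, Brip1, Gins2, Casp8ap2, Tipin and Blm peaked in bin 2 in both, and E2f8, Dscc1, Slbp, Mcm5, Rrm1, Rrm2, Ubr7, Pcna, Fen1, Prim1, Tyms and Rfc2 in bin 3 in both. The other members were 1 bin apart: Ccne2, Chaf1b, Cdc45, Nasp, Pold3, Pola1 and Usp1 peaked a bin later in B16F10, and Cdca7, Rad51ap1 and Gmnn a bin earlier. The exact peak bin moved with the scores. With scores computed anew and the gene left out, the peak fell in bin 2 for 16 members and in bin 3 for 24 in B16F10, and in bin 1 for 1, in bin 2 for 14 and in bin 3 for 25 in B16F0. In B16F10 33 members and in B16F0 29 members kept their bin, and 26 had the same bin in both lines. Of the members a bin apart between lines, only Ccne2, Pold3, Pola1 and Gmnn then remained so in the same direction. The peak of Ung in B16F10 then lay in bin 2, as it did after the deepest 5% of cells were set aside.

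**Figure D2:**
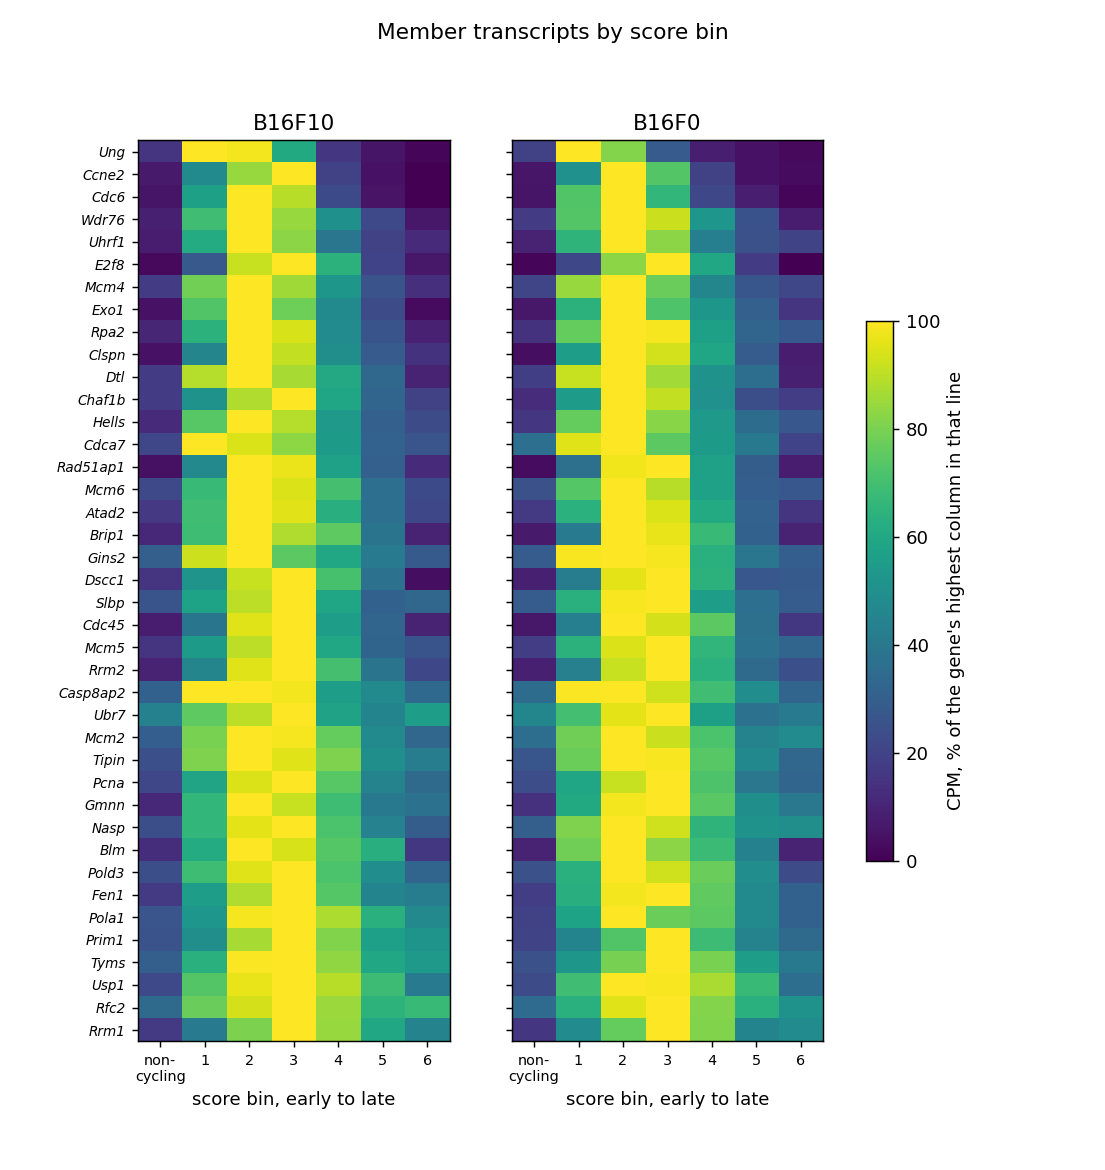
Level of each member in non-cycling cells and in 6 score bins from early (1) to late (6), as a percent of the gene's highest column in that line, for B16F10 (left) and B16F0 (right). Rows run from the lowest to the highest late over early ratio, and the bright columns lie in bins 1 to 3 in both panels, with Ung, Ccne2 and Cdc6 dark from bin 4 and Rrm1, Rfc2 and Usp1 still bright there.

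Persistence was measured as the log2 ratio of G2M only over S only cells. The median of the members was -1.36 in B16F10 and -1.30 in B16F0, and that of all genes -0.019 in B16F10 and -0.0034 in B16F0. In each line 35 of the 40 members were lower in G2M only cells by 1.5-fold (background 3.72% in B16F10 and 5% in B16F0), and 0 were higher (background 4.13% in B16F10 and 4.64% in B16F0). A member was said to stand apart where its ratio was 2-fold or more from the median of the members in both lines. By that measure Ung, Ccne2 and Cdc6 stood apart below, and no member stood apart above. The next lowest, Wdr76 at -2.17 in B16F10 and -1.96 in B16F0, did not pass.

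Ung, which removes uracil from DNA and lies at chr5:114130386-114139323, had 61.4, 22.8 and 3.36 CPM in S only, both and G2M only cells of B16F10 and 53.8, 11.1 and 2.76 CPM in those of B16F0. Its late over early ratio was -4.19 (-4.74 to -3.69) in B16F10 and -4.28 (-4.80 to -3.81) in B16F0. In G2M only cells Ung was below its own non-cycling level, which was 9.41 CPM in B16F10 and 11.5 CPM in B16F0. Thinned shares of cells with an Ung UMI were 72.3%, 33.8% and 7.41% over S only, both and G2M only cells of B16F10, and 64.3%, 20.2% and 5.43% over those of B16F0. Unthinned, they were 80.3%, 42.0% and 9.74% in B16F10 and 76.5%, 27.5% and 8.60% in B16F0.

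Cdc6, the licensing factor at chr11:98907801-98923940, had 33.5, 19.9 and 1.83 CPM over the same 3 classes of B16F10 and 26.8, 13.4 and 2.24 CPM over those of B16F0. Its late over early ratio was -4.20 (-4.96 to -3.52) in B16F10 and -3.58 (-4.16 to -3.05) in B16F0. Ccne2, the cyclin at chr4:11191351-11204779, had 18.5, 13.8 and 1.12 CPM in B16F10 and 24.7, 14.7 and 1.49 CPM in B16F0. Its ratio was -4.05 (-5.07 to -3.18) in B16F10 and -4.04 (-4.77 to -3.40) in B16F0. Both genes act before or at the firing of origins. Their levels in non-cycling cells were low too, 2.15 CPM for Cdc6 and 1.79 CPM for Ccne2 in B16F10, and 1.68 CPM and 1.97 CPM for these genes in B16F0. Few counts lie behind these values. In B16F10, Ccne2 had 11 UMIs in bin 5 and 0 in bin 6, and 20 UMIs in non-cycling cells.

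These 3 genes were not alike in the middle of the order. From S only to both, the median log2 change of the members was -0.15 in B16F10 and -0.10 in B16F0. Ung changed by -1.43 (-1.59 to -1.27) in B16F10 and -2.28 (-2.49 to -2.07) in B16F0, and it was the only member that stood apart from the median by 2-fold in both lines. Cdc6 changed by -0.75 in B16F10 and -1.0 in B16F0, and Ccne2 by -0.42 in B16F10 and -0.74 in B16F0. By bin, Ung had 62.2, 61.1, 37.8 and 9.72 CPM in bins 1 to 4 of B16F10 and 59.9, 48.7, 17.2 and 5.01 CPM in those of B16F0. Ccne2 had 11.6, 20.5, 24.3 and 4.74 CPM in B16F10 and 16.1, 31.8, 23.3 and 6.34 CPM in B16F0. Ung was thus already high in the first bin, and Ccne2 rose over the S only bins before its drop between bins 3 and 4.

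At the late end, Rrm1, Rfc2 and Usp1 had the highest late over early ratios by the mean of both lines, followed by Tyms and Prim1. Rrm1 was at -0.29 (-0.43 to -0.15) in B16F10 and -0.49 (-0.65 to -0.33) in B16F0, Rfc2 at -0.47 in B16F10 and -0.39 in B16F0, and Usp1 at -0.47 in B16F10 and -0.46 in B16F0. Tyms was at -0.62 in B16F10 and -0.34 in B16F0, and Prim1 at -0.48 in both lines. Together with Pola1, at -0.51 in B16F10 and -0.84 in B16F0, these were the members under 1.5-fold in at least 1 line. Rrm1 had 87.5, 112 and 71.6 CPM over S only, both and G2M only cells of B16F10 and 49.7, 70.8 and 35.5 CPM over those of B16F0.

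From S only to both cells, Rrm1 increased by log2 0.36 in B16F10 and 0.51 in B16F0, Prim1 by 0.20 in B16F10 and 0.48 in B16F0, and E2f8 by 0.07 in B16F10 and 0.54 in B16F0. These 3 had the highest such ratios by the mean of both lines. E2f8 did not persist, however, with 28.3, 29.8 and 7.02 CPM over the 3 classes of B16F10 and 17.3, 25.2 and 4.71 CPM over those of B16F0. Prim1 had 42.7 CPM in its highest bin, bin 3, in B16F10 and 78.8 CPM in the same bin in B16F0. Usp1 had 182, 188 and 168 CPM in bins 2 to 4 of B16F10 and 163, 162 and 143 CPM in those of B16F0, a broad plateau in both lines.

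**Figure D3:**
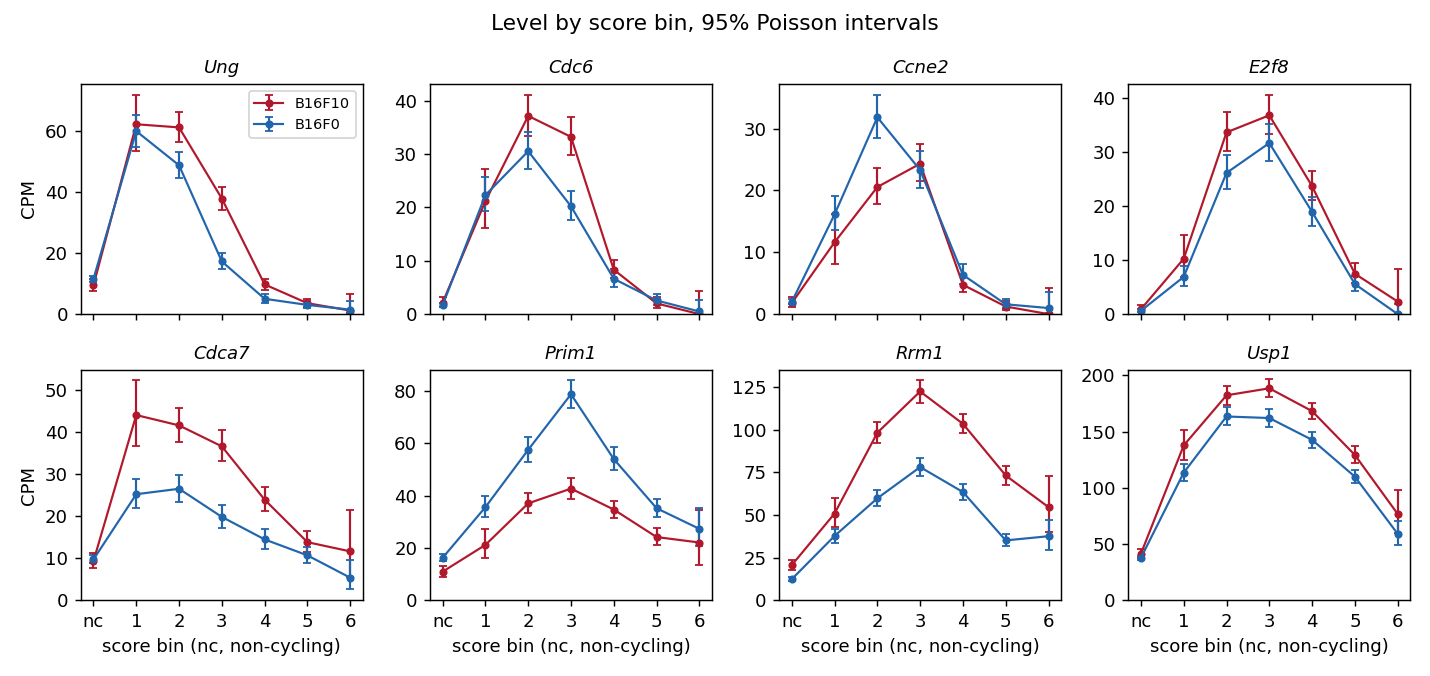
Summed CPM of 8 members in non-cycling cells (nc) and in score bins 1 to 6, for B16F10 (red) and B16F0 (blue), with exact 95% Poisson intervals as bars. Ung is high in bins 1 and 2 and near 0 from bin 5, Rrm1 is higher in B16F10 and Prim1 higher in B16F0 at every position, and Usp1 keeps 129 CPM in bin 5 of B16F10 and 110 CPM in bin 5 of B16F0.

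The calls of members that stood apart were repeated with other scores and bins, which are not independent of the deposited scores. New S scores averaged the other members, and new G2/M scores averaged a list of G2/M genes. Both were matched to the deposited scores in spread and in the share of cells above 0. With S and G2/M scores computed anew and the gene in question left out, the same members stood apart, Ung, Ccne2 and Cdc6 for late over early and Ung for both over S only. Late over early was then -4.24 in B16F10 and -4.28 in B16F0 for Ung, -3.92 in B16F10 and -3.17 in B16F0 for Cdc6, and -3.54 in B16F10 and -3.83 in B16F0 for Ccne2. The same 3 and Ung alone stood apart with bins of equal cell number and after the deepest 5% of cells were set aside. Both of these settings used the deposited scores.

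Of 60 other genes of replication that are not members, 52 reached 10 CPM in cycling cells of either line. Of these, 2 were higher in B16F10 by 1.5-fold (background 9%) and 2 were lower (background 5.97%). Ticrr, which helps to fire origins, and Wdhd1, which couples helicase and polymerase, were higher in B16F10, at log2 0.70 and 0.63. Rnaseh2a, a subunit of the nuclease that removes ribonucleotides, and Asf1b, a histone chaperone, were lower, at -0.91 and -0.70. The median of the 52 was 0.0064, near that of the members. Over all cells 10 of 50 were higher (background 11.3%) and 1, Rnaseh2a, was lower (background 6.14%). The median was 0.26, so this list too lay further above 0 over all cells than in cycling cells. Among 4685 genes with at least 20 CPM in cycling cells of both lines, the non-members with a profile over the bins most like the mean of 37 members, by Pearson's r over 12 values, were Mcmbp (0.993), Paxip1 (0.991), Rfc3 (0.987), Prpf4 (0.980), Mcm10 (0.976), Mcm3 (0.975), Ddx27 (0.975) and Nxt1 (0.972). These points share cells and the score axis, so the r is a description. Among these 37 members the least like their mean were Rrm1 (0.70), Prim1 (0.79) and Ubr7 (0.85). Ccne2 and Cdc6 had 0 UMIs in bin 6 of B16F10 and E2f8 in bin 6 of B16F0, so these members were not compared.

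The authors' clusters C1 to C5 and trajectory states were each made from these cells, and members may have entered them, so the values by class are a description. In B16F10 the members summed to 2654 CPM in C4, 3039 CPM in C5 and 824 CPM in C3, and in B16F0 to 2839 CPM in C4, 3070 CPM in C2, 1186 CPM in C1 and 947 CPM in C3. The share of cycling cells was high where the sums were high, at 100% in C4, 94.4% in C5 and 8.5% in C3 of B16F10, and 99.6% in C4, 99.5% in C2, 26.8% in C1 and 11.1% in C3 of B16F0. C2 and C1 held 4 and 7 B16F10 cells and C5 held 13 B16F0 cells, too few to give a level.

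Between the cycling clusters, C4 set against C5 in cycling B16F10 cells had 9 members lower by 1.5-fold (background 11.1%) and 0 higher (background 12%), with a median log2 ratio of -0.28. The 9 were Ung, Cdc6, Ccne2, Cdca7, Pcna, Rpa2, Gmnn, Rrm1 and Tyms, led by Ung with 14.2 CPM in C4 and 31.9 CPM in C5. The highest was Brip1, with 21.6 CPM in C4 and 16.7 CPM in C5. G2M only cells made up 35.4% of cycling cells in C4 and 19.0% in C5, and the median depth was 29693 UMIs in C4 and 38122.5 UMIs in C5. Over all B16F10 cells of these clusters the median mitochondrial share was 8.58% in C4 and 6.17% in C5, and its part was not tested. With S only, both and G2M only cells weighted equally the members' median log2 ratio was -0.083. Of the 9, 3 then stayed past the fold, Ung at -0.81, Cdc6 at -0.75 and Ccne2 at -0.67. In cycling B16F0 cells, C4 against C2 had 1 member lower (background 2.44%), Ccne2 with 10.5 CPM in C4 and 20.2 CPM in C2, 0 higher (background 5.4%) and a median of -0.090. Tyms was the highest there, with 124 CPM in C4 and 102 CPM in C2. Between the lines within cycling C4 cells, 0 members were higher in B16F10 (background 19.1%) and 8 were lower (background 14.1%), with a median log2 ratio of -0.12. The 8 were Chaf1b, Prim1, Dscc1, Pcna, Tyms, Rpa2, Ccne2 and Gmnn, led by Chaf1b with 32.5 CPM in B16F10 and 63.2 CPM in B16F0. Median depth in these cells was 29693 UMIs in B16F10 and 38722 UMIs in B16F0. The median mitochondrial share over all C4 cells was 8.58% in B16F10 and 4.87% in B16F0. The part of either was not tested. With equal weight to the phase classes 7 of the 8 stayed lower, all but Gmnn, while 2 members, Uhrf1 at 0.64 and Blm at 0.60, were higher.

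By trajectory state, most cycling B16F10 cells (1213) lay in state 1, while cycling B16F0 cells lay mostly in states 1, 2, 4 and 5 (165, 186, 547 and 479 cells), with 2, 12 and 20 in states 3, 6 and 7. The members summed to 3007 CPM in state 1 of B16F10, and to 2709, 3069, 3085 and 2105 CPM in states 1, 2, 4 and 5 of B16F0. In states that are mostly non-cycling they summed to 753 CPM in state 7 of B16F10, and to 724 CPM in state 6 and 770 CPM in state 7 of B16F0. Within state 1, cycling B16F10 cells set against cycling B16F0 cells had 6 members higher (background 6.7%) and 2 lower (background 7.45%), led by Ung with 29.3 CPM in B16F10 and 11.6 CPM in B16F0. S only cells made up 29.2% of these cells in B16F10 and 17.6% in B16F0, and with equal weight to the phase classes the members' median log2 ratio was 0.020, compared with 0.24 without it. So weighted, 0 members were higher by 1.5-fold, with Ung at 29.3 CPM in B16F10 and 20.1 CPM in B16F0, and 2 were lower, Prim1 and Rad51ap1, both at -0.73. State 4 against state 2 in B16F0 had 3 members higher (background 0.223%), Ccne2, Ung and Cdc6, the members that fell furthest between S only and G2M only cells, and 0 lower (background 1.1%). S only cells made up 26.9% of the 547 cells of state 4 and 9.14% of the 186 cells of state 2. With equal weight to the phase classes 0 members were past the fold in either direction. In B16F0 that weighting gave the few S only cells of states 1 and 2 as much weight as the other classes of those states. The share of all genes under it was not computed.

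Non-cycling cells were not uniform in these transcripts. In B16F0, the 180 non-cycling cells of state 5 had 20 of 28 measured members higher than the 557 of state 6 (background 3.59%) and 0 lower (background 0.948%), with a median log2 ratio of 0.84 for the members and 0.08 for all genes. Rad51ap1 led with 12.4 CPM in state 5 and 3.5 CPM in state 6, followed by Mcm5 with 27.0 CPM in state 5 and 8.19 CPM in state 6. In B16F10, the 59 non-cycling cells of C5 had 20 of 29 higher than the 280 of C3 (background 13%) and 0 lower (background 5.81%), with a median of 0.81, and Mcm5 had 25.6 CPM in C5 and 9.05 CPM in C3. Both contrasts set cells from a mostly cycling class against cells from a mostly non-cycling one, below the score threshold on either side. By contrast, non-cycling C1 and C3 cells of B16F0 had 0 of 27 members past the fold (background 3.17% higher and 5.41% lower). In non-cycling state 7, Rrm1, with 18.0 CPM in B16F10 and 9.53 CPM in B16F0, and Rrm2, with 29.6 CPM in B16F10 and 16.9 CPM in B16F0, were higher of 24 measured (background 8.87%), and 0 were lower (background 7.61%).

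The authors also divided the cells by Kdm5b, a histone demethylase described as a marker of slow-cycling melanoma cells. The high class held 121 B16F10 and 111 B16F0 cells, and the low class 1453 B16F10 and 2471 B16F0 cells. In Kdm5b high cells 36.4% (B16F10) and 18.0% (B16F0) were cycling, and in Kdm5b low cells 81.6% (B16F10) and 56.3% (B16F0). The members were lower in Kdm5b high cells by 1.5-fold for 39 of 40 in B16F10 (background 5.14%) and for 37 of 37 measured in B16F0 (background 5.03%), with medians of -1.30 in B16F10 and -1.27 in B16F0. None was higher, where 2.5% of all genes in B16F10 and 1.84% in B16F0 were. Median depth was 31174 UMIs in high and 35478 UMIs in low cells of B16F10, and 29878 UMIs in high and 35863 UMIs in low cells of B16F0, and its part was not tested.

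The lowest ratio in B16F10 was that of Rad51ap1, with 8.29 CPM in Kdm5b high and 63.1 CPM in Kdm5b low cells, a log2 ratio of -2.93 (-3.48 to -2.43). In B16F0 it was that of E2f8, with 1.16 CPM in high and 10.3 CPM in low cells, a log2 ratio of -3.15 (-5.03 to -1.79). Ubr7 had the highest ratio in both lines, with 16.6 CPM in high and 21.4 CPM in low cells of B16F10, and 11 CPM in high and 16.6 CPM in low cells of B16F0. Rad51ap1 and E2f8 were also the members with the widest contrast between cycling and non-cycling cells, and Ubr7 the one with the narrowest.

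Within the cycle classes the gap was smaller. With equal weight to the phase classes 8 members were lower and 0 higher in Kdm5b high cells of B16F10. In those of B16F0 6 were lower and 4 higher (Dtl, Rrm1, Casp8ap2 and Wdr76). There, cells with both scores above 0 did not enter because the high class held 1. Kdm5b high S only cells numbered 8 in B16F10 and 5 in B16F0, and these 5 held 98836 UMIs in all. So weighted, the counts lean on these few cells, and the share of all genes under this weighting was not computed. In non-cycling cells 5 of 25 members were lower in Kdm5b high cells of B16F10 (background 1.69%), Gmnn, Mcm5, Fen1, Uhrf1 and Mcm4, and 2 of 26 in B16F0 (background 0.759%), Ung and Fen1. None was higher, where 2.07% of all genes in B16F10 and 1.63% in B16F0 were. The medians were -0.21 in B16F10 and -0.24 in B16F0. Fen1 had 5.75 CPM in high and 11.1 CPM in low non-cycling cells of B16F10, and 6.63 CPM in high and 10.0 CPM in low ones of B16F0. In cycling cells 28 of 40 were lower in B16F10 (44 high cells, background 3.92%) and 26 of 40 in B16F0 (20 high cells, background 10%), and 0 were higher in either line (background 5.23% in B16F10 and 10.5% in B16F0). The medians were -0.67 in B16F10 and -0.82 in B16F0. Of the cycling high cells 28 of 44 in B16F10 and 14 of 20 in B16F0 were G2M only, and of the cycling low cells 239 of 1186 in B16F10 and 358 of 1391 in B16F0. Among G2M only cells 6 of 33 members were lower in B16F10 (background 5.25%) and 4 of 34 in B16F0 (background 11.5%), and 2 were higher in B16F10, Cdca7 and Exo1 (background 7.13%), and 1 in B16F0, Blm (background 11%). The medians there were -0.19 in B16F10 and -0.16 in B16F0.

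**Figure D4:**
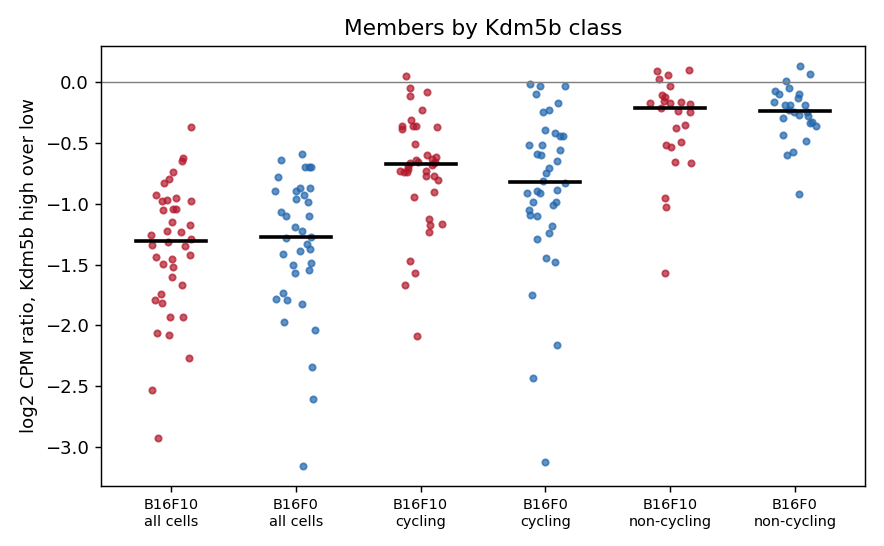
Log2 CPM ratio of Kdm5b high over Kdm5b low cells for each measured member, in all cells, cycling cells and non-cycling cells of B16F10 (red) and B16F0 (blue), with black bars at the medians. The medians of B16F10 lie at -1.30 in all, -0.67 in cycling and -0.21 in non-cycling cells, and those of B16F0 at -1.27, -0.82 and -0.24.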

How the data were processed

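Per the labels' protocols, both libraries used the 10x Chromium 3' kit of v2 chemistry. The submitters' processing notes name Cell Ranger 3.0.0, Seurat 3.0 and the build mm10, and no source used here gives the cell filters. The authors deposited raw UMI counts for 14959 genes and 4156 cells, with a table of classes per cell and an S and a G2/M score, per the file headers. Natural log values and byte for byte copies were not used, and 0 per-sample columns were left unused. Cells were assigned to lines by the deposited line name, all were kept, and no doublet caller was run.

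Counts were summed over the cells of a class and divided by its total to CPM. CPM carry exact Poisson intervals, ratios exact conditional binomial intervals and shares of cells Clopper-Pearson intervals, which cover counting error only. With 1 library per line no model was fitted and no p-value is given. A gene counted as higher or lower at 1.5-fold where either class reached 10 CPM, and background percents are the same count over all genes. For shares, cells were thinned to 23173 UMIs, leaving out 158 B16F10 and 388 B16F0 cells. The steps were tested on simulated counts.

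Every member is accounted for. Full values are given for members past 1.5-fold in cycling cells, the 3 at either end of each timing ratio, members peaking 2 bins from the modal bin in both lines, and the extremes by cluster and Kdm5b class. Other members and genes were named where a count or role called for it, after their values were seen. The members and lists were chosen with earlier results of these data known. Alternatives were TMM factors (edgeR 4.0.16), size factors (DESeq2 1.42.0), other totals, cell sets, score bins and thresholds, and equal weight to phase classes, which was added for clusters and states after seeing the data. Under equal weight to phase classes no share of all genes was computed. Positions came from GENCODE on GRCm38 and promoters from RefSeq on GRCm38.p6. The work ran in R 4.3.3 and in Python 3.11.15 with scipy 1.17.1, numpy 2.4.6, matplotlib 3.10.9 and pandas 2.3.3.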

Additional observations from a re-analysis of the deposited data

Results flagged for a closer look

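Some members moved in opposite directions in B16F10 and B16F0 under a matching contrast, and these differences were not tested. For C4 over the line's other main cycling cluster (C5 in B16F10, C2 in B16F0), the log2 ratio was -0.69 in B16F10 and 0.12 in B16F0 for Pcna, -0.59 in B16F10 and 0.29 in B16F0 for Tyms, and -0.60 in B16F10 and 0.13 in B16F0 for Rrm1. It was 0.17 in B16F10 and -0.28 in B16F0 for Usp1, and 0.37 in B16F10 and -0.39 in B16F0 for Brip1. The clusters compared are not the same in the lines, and Pcna and Tyms may share reads with pseudogenes. For cells with both scores above 0 over S only cells, the ratio was -0.21 in B16F10 and 0.17 in B16F0 for Rad51ap1, and -0.22 in B16F10 and 0.10 in B16F0 for Gmnn. Bin 1 made up more of the S only cells in B16F0 than in B16F10. Set against bin 2 alone, cells with both scores above 0 were lower in both lines. Rad51ap1 had 79.7 CPM in these cells and 105 CPM in bin 2 of B16F10, and 119 and 149 CPM in B16F0. Gmnn had 89.5 and 113 CPM in B16F10, and 101 and 114 CPM in B16F0.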

How the results depend on the processing

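Over all cells the members' median log2 ratio of 0.34 was 0.27 with TMM factors, 0.26 with DESeq2 size factors, 0.32 when mitochondrial and ribosomal protein genes were taken out of the total, 0.37 with the mean of per-cell CPM, 0.45 in cells with at most 8% mitochondrial UMIs and 0.31 at a 50 CPM minimum. TMM and DESeq2 factors moved the median of all genes by -0.097 and -0.102. The 13 higher members became 10 with either factor, 6 at 50 CPM and 1 at 2-fold. In cycling cells the median of 0.048 was 0.033 with that total, 0.060 without the deepest 5% of cells, 0.12 with at most 8% mitochondrial UMIs, 0.036 with own scores and 0.013 at 50 CPM, and it reversed to -0.0030 with equal weight to each of 6 bins. The 2 higher members became 3 with at most 8% mitochondrial UMIs, where Rrm2 was added, 1 at 50 CPM and 0 at 2-fold, and the 1 lower member became 0 with the mean of per-cell CPM, with at most 8% mitochondrial UMIs and at 2-fold. The median late over early ratio was -1.23 in B16F10 and -1.15 in B16F0 with own scores, -1.10 in B16F10 and -1.05 in B16F0 with bins of equal cell number, and -1.34 in B16F0 without the deepest 5% of cells. The Kdm5b medians became -0.22 in B16F10 and -0.11 in B16F0 with equal weight to phase classes (without the class that held 1 high B16F0 cell), -0.67 in B16F10 and -0.82 in B16F0 in cycling cells, and -0.21 in B16F10 and -0.24 in B16F0 in non-cycling cells. With that weighting, chosen after seeing the data for clusters and states, the median of C4 over C5 was -0.083, that of C4 over C2 reversed from -0.090 to 0.0096, that of state 1 was 0.020, that of C4 between the lines was -0.083 and that of state 4 over state 2 was -0.16. Peak bins were the same in both lines for 30 members, and for 25 to 27 under the other scores, bins and cell set. Single members were followed only where their ratios were wide. For the line ratio in cycling cells these were Mcm4, Rrm1, Cdca7, Dtl, Prim1, Uhrf1, Rrm2 and E2f8. For late over early they were Ung, Ccne2, Cdc6, Rrm1, Usp1, Rfc2, Tyms and Prim1. Of their values 84 stayed within their counting interval and 12 moved past it, with 0 reversals. Members with ratios near 0 were left out, so few reversals could have been found. Apart from the fewer genes or cells that some settings hold, the cause of these changes was not tested. No paired analysis was possible because each line has 1 library. Depth limits bins 1 and 6 of B16F10, bin 6 of B16F0 and the Kdm5b high classes, whose cells are few.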
